A study of Mus musculus with 6 samples.

Results

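Saa3, Lcn2, Hp and Lrg1 are 4 acute phase genes among the 32285 genes measured in cells of the mouse kidney after rhabdomyolysis, the breakdown of skeletal muscle. They were taken by symbol from the deposited gene list, and all 4 were present. They were chosen by their raw UMI counts per library, already known to be higher in the rhabdomyolysis libraries than in the control libraries, so their levels are given below as a description, without a test. The rhabdomyolysis group held 3 libraries from C57BL/6J mice aged 8 weeks with kidney injury induced by rhabdomyolysis, and the control group held 3 libraries from C57BL/6J mice of the same age. The sources used here give neither the agent that induced rhabdomyolysis nor the time after it. In both groups the kidneys were dissociated with collagenase and DNase and sorted for CD45, the surface protein of leukocytes, and RNA was read from the 3' end in droplets (10x Genomics). The labels do not say whether the libraries of a group came from separate animals, so a p-value below reflects how libraries vary, which may be technical variation.

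Acute phase proteins are secreted in large amounts during inflammation, mainly by the liver but also by myeloid and epithelial cells. Interleukin 1, interleukin 6 and related cytokines induce their genes through NF-kappa B, STAT3 and the C/EBP transcription factors. Saa3 encodes a serum amyloid A protein of mice that is made largely outside the liver, including by macrophages. Lcn2 encodes lipocalin 2, also called NGAL, which binds bacterial siderophores and so withholds iron. It is stored in the granules of neutrophils, is made by injured kidney tubules, and is used as a marker of acute kidney injury. Hp encodes haptoglobin, which binds free hemoglobin and is cleared through the receptor CD163. Lrg1 encodes leucine-rich alpha-2-glycoprotein 1, which is made by neutrophils and endothelial cells and modulates transforming growth factor beta signalling in vessels through endoglin.

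In the build GRCm38.p6 the genes lie on different chromosomes, Saa3 at chr7:46711998-46719615, Lcn2 at chr2:32384637-32387739, Hp at chr8:109575128-109579172 and Lrg1 at chr17:56119678-56121946. RefSeq promoter windows of 300 bases on the minus strand were matched for 3 of the 4 genes and are shown because these genes are textbook targets of the factors named above. The windows are chr7:46715627-46715926 for Saa3, which lies inside the annotated span of the gene, chr2:32387690-32387989 for Lcn2 and chr17:56121897-56122196 for Lrg1. Both strands were searched for a C/EBP motif (TTGCNNAA), a kappa B motif (GGNNTTNCC), a STAT motif (TTCNNNGAA) and a TATA box (TATAAA), and capitals mark the matches, none of which overlap.
Saa3: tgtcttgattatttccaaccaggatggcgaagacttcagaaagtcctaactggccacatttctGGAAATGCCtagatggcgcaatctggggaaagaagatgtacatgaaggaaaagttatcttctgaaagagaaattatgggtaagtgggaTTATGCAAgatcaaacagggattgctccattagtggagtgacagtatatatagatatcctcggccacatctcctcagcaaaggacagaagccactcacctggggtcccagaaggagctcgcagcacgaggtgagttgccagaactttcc
Lcn2: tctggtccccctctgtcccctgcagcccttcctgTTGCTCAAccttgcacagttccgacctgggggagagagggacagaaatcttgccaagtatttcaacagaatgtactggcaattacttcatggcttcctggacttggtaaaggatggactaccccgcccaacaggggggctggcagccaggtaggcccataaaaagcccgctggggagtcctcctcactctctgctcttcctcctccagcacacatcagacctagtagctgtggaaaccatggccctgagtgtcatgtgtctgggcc
Lrg1: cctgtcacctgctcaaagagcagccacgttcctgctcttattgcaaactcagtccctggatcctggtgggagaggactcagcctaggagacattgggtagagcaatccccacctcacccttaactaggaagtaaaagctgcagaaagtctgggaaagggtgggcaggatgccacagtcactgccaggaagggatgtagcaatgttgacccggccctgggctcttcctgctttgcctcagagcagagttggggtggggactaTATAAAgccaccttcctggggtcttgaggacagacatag
The Saa3 window held a C/EBP match on the opposite strand with its first base at position -99 from the start, and a kappa B match on the opposite strand at -187. The Lcn2 window held a C/EBP match at -216. The Lrg1 window held a TATA box letter match at position 12 after the start, and no STAT match was present in the 3 windows. Among 32851 promoter windows of the same length, 10.8% held the C/EBP letters, 16.0% the kappa B letters, 8.30% the STAT letters and 13.6% the TATA box letters, so each match is a description of the letters and not a site.

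All 4 genes were far more abundant in each rhabdomyolysis library than in any control library. Values are unique molecular identifiers (UMIs), each standing for 1 captured RNA molecule, given as counts or as CPM, the count scaled to the same total of gene UMIs for each class and library. Because 1 UMI marks the 3' end of a molecule, CPM is not divided by gene length. Over all barcodes Saa3 had 2581, 12213 and 2429 UMIs in rhabdomyolysis libraries 1, 2 and 3, against 9, 14 and 16 UMIs in control libraries 1, 2 and 3. Lcn2 had 2631, 6156 and 2619 UMIs in the rhabdomyolysis libraries, against 61, 26 and 21 in the control libraries. Hp had 2294, 3804 and 3922 UMIs in the rhabdomyolysis libraries, against 147, 134 and 94 in the control libraries. The groups did not overlap for these genes. All 4 genes were chosen by these same counts, so a lack of overlap here is a description and no result about them. Rhabdomyolysis library 2 stood highest for Saa3 and Lcn2. Lrg1, the least abundant in the rhabdomyolysis group, had 576, 792 and 830 UMIs in the rhabdomyolysis libraries and 30, 29 and 5 in the control libraries, again without overlap. In called cells, the CPM of Saa3 averaged 434 ± 404 in rhabdomyolysis and 0.135 ± 0.164 in control libraries (SD, n = 3 each). That of Lcn2 averaged 274 ± 144 in rhabdomyolysis and 2.05 ± 0.856 in control libraries, and that of Hp 257 ± 48.3 in rhabdomyolysis and 8.07 ± 1.29 in control libraries. For Lrg1 the averages were 57.8 ± 13.5 in rhabdomyolysis and 1.12 ± 0.946 in control libraries. Saa3 varied most among the rhabdomyolysis libraries, with 287, 891 and 123 CPM in called cells of libraries 1, 2 and 3, while Hp had 265, 301 and 205 CPM. Over the summed called cells, the CPM ratio of rhabdomyolysis to control was 116 for Lcn2 (95% counting interval 93.3 to 145), 30.7 for Hp (27.4 to 34.4) and 47.4 for Lrg1 (35.3 to 65.3). For Saa3, with 14013 UMIs in rhabdomyolysis and 5 in control cells, it was 3087 (1322 to 9508), whereas over all barcodes the Saa3 ratio was 475 (347 to 668). These intervals cover counting error only, not the spread between libraries.

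The rhabdomyolysis libraries held 10816727 to 22656666 gene UMIs and gave 1872, 2495 and 4377 cells, and the control libraries held 16666253 to 19427318 gene UMIs and gave 4074, 3591 and 3358 cells. Median UMIs per cell were 2309.5 to 2947 in rhabdomyolysis and 2958.5 to 3253.5 in control libraries. Called cells of any pair of libraries shared between 0 and 7 barcodes. Cells were clustered without the 4 genes, and clusters were named from marker lists, so class names are rebuilt here and are not the study's own. Clusters with Malat1, an abundant nuclear RNA, under 0.1% of UMIs were given no class and are named Malat1-poor. They made up 45.7%, 39.8% and 60.5% of called cells in rhabdomyolysis libraries 1, 2 and 3. Macrophage-like cells of the groups fell into different clusters: cluster 1 held 362, 617 and 297 cells in the rhabdomyolysis libraries and 0 in the control libraries, whose macrophages lay in clusters 8 and 25. Of 14 macrophage markers, 4 were over 2-fold above all other cells in cluster 1, 11 in cluster 8 and 5 in cluster 25. The name thus rests on fewer markers in the rhabdomyolysis cluster.

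Among the named classes, Saa3 was highest in monocyte-like cells in every rhabdomyolysis library. In classical monocyte-like cells it reached 667, 1459.8 and 419 CPM in rhabdomyolysis libraries 1, 2 and 3 (263, 301 and 455 cells), against 0 UMIs in all 3 control libraries (31, 20 and 21 cells). The summed level was at least 89.2-fold higher in rhabdomyolysis, taking 3 UMIs over the control group as the limit that a count of 0 allows. At a finer clustering (below), 32, 20 and 20 control cells fell in an unnamed cluster led by Ace, a marker of nonclassical monocytes. The cluster still named classical held 0, 0 and 1 control cells, against 158, 163 and 264 rhabdomyolysis cells. The monocyte ratios given here and below thus compare unlike mixtures of monocytes. In macrophage-like cells Saa3 had 68.9, 726 and 4.46 CPM in the rhabdomyolysis libraries, against 0, 0.39 and 0 CPM in the control libraries. Relative to its mean, the macrophage value thus varied more than the monocyte value within the rhabdomyolysis group, and the lowest rhabdomyolysis library still lay above the control libraries. A single macrophage-like cell held 487 of the 2370 Saa3 UMIs of this class in rhabdomyolysis library 2 (20.5%), and another held 86 of 165 in library 1 (52.1%). The value of library 3 rests on 11 UMIs, 6 of them in a single cell (54.5%). Neutrophil-like cells had 223, 521 and 38.9 CPM of Saa3 in the rhabdomyolysis libraries, against 0 UMIs in the 31 control neutrophil-like cells, at least 7.01-fold higher in the sum. T cell-like cells had no Saa3 UMI in either group, which over the 69 rhabdomyolysis cells allows up to 15.6 CPM. Unnamed clusters 13 and 15 also had 12 of 12 T cell markers over 2-fold but lay outside that class. Cluster 13 had 15 Saa3 UMIs in 105 rhabdomyolysis cells, 0 to 107 CPM by library, and 0 UMIs in 193 control cells. Cluster 15 had 0 Saa3 UMIs in 66 rhabdomyolysis cells and 1 in 400 control cells. B cell-like cells had 0, 44.3 and 0 CPM in the rhabdomyolysis libraries (0, 9 and 0 UMIs), against 0, 1.26 and 1.26 CPM in the control libraries.

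**Figure D1:**
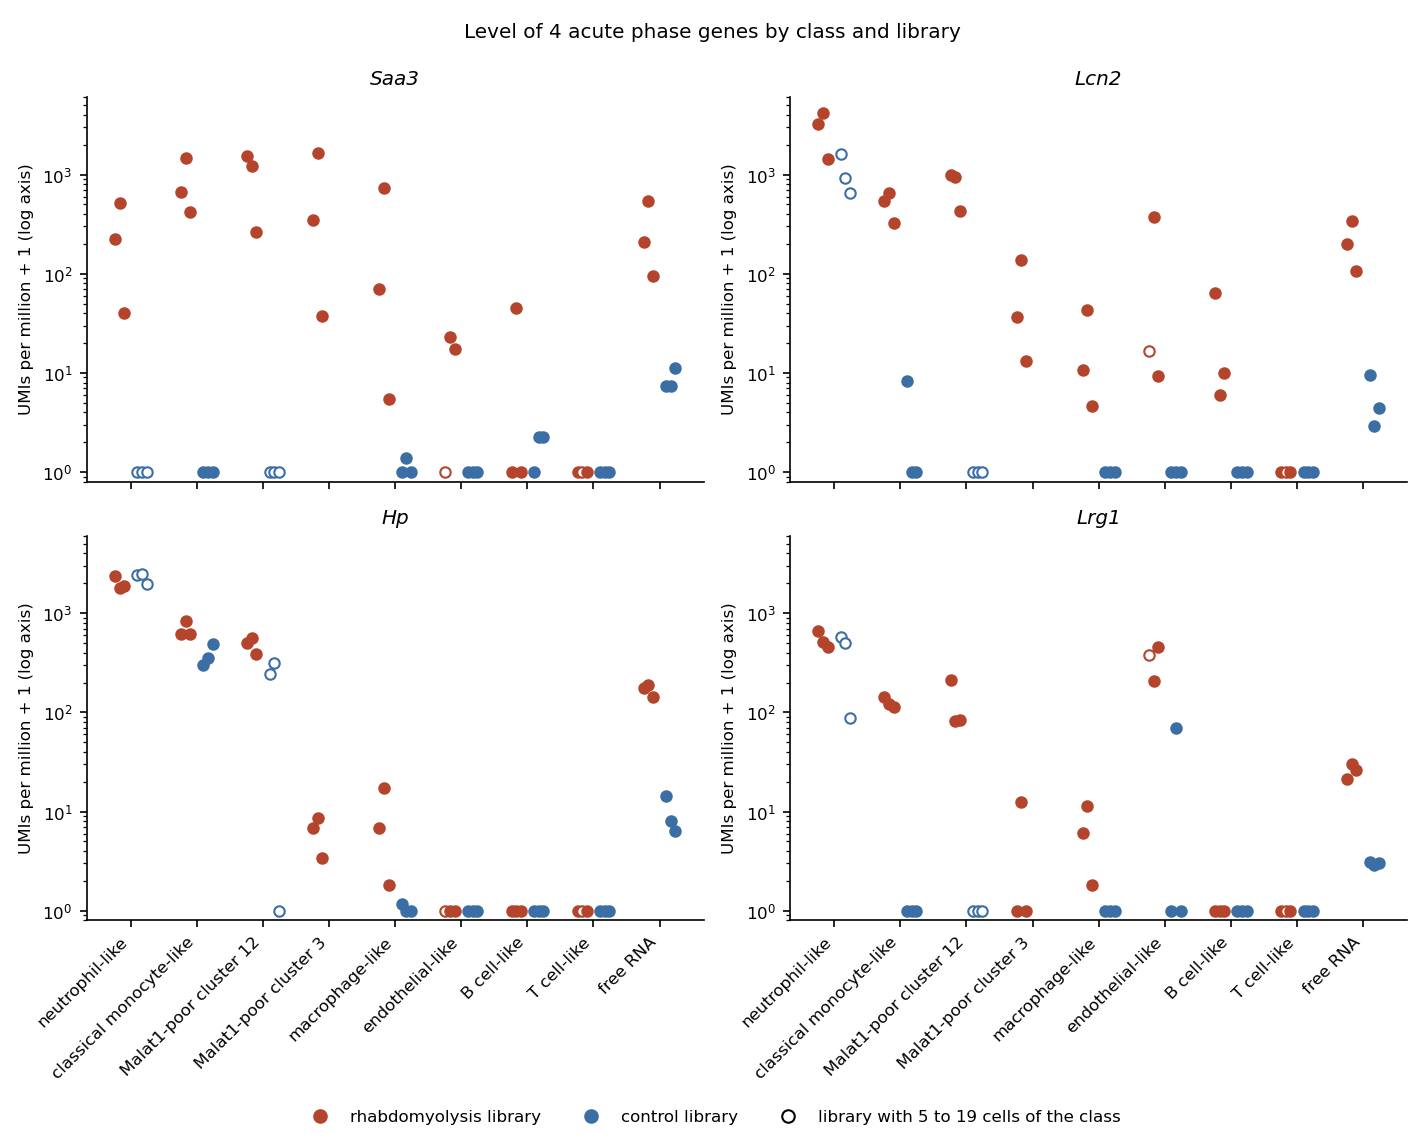
Level of each gene as CPM + 1 (vertical, log axis, so that 0 CPM stands at 1) in each cell class and in free RNA, 1 point per library, rhabdomyolysis (red) left of control (blue), with open points for libraries with 5 to 19 cells of the class. Hp lies at a like height in neutrophil-like cells of both groups, whereas Saa3 is at 0 in the control neutrophil-like and monocyte-like cells.

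Malat1-poor clusters 12 and 3 also carried Saa3. Malat1-poor cluster 12, whose leading genes include Prtn3, Arg1, Spp1, Lcn2 and Chil3, had 1556, 1205 and 265 CPM in rhabdomyolysis libraries 1, 2 and 3 and 0 UMIs in 9, 12 and 7 control barcodes. Malat1-poor cluster 3, with Tagln, Mt2, Pf4 and Saa3 among its leading genes and only 3 of 14 macrophage markers over 2-fold above all other cells, had 345, 1662 and 36.4 CPM in the rhabdomyolysis libraries. In every one of these units library 2 or library 1 was highest and library 3 lowest. By mean CPM over the rhabdomyolysis libraries Saa3 ran from Malat1-poor cluster 12 (1009 ± 667) through monocytes (848 ± 544), Malat1-poor cluster 3 (681 ± 864), free RNA (279 ± 230) and macrophages (266 ± 399) to neutrophils (261 ± 243; SD, n = 3 each). No neighbours in that order were separated: their ranges over libraries overlapped at each step. Free RNA means barcodes with 100 or fewer UMIs, which hold too little RNA to be cells. It is not the level of a class without the gene, since rhabdomyolysis NK cell-like and innate lymphoid-like cells had 0 Saa3 UMIs (150 and 145 cells) and proliferating cells 6.67 CPM. Taken as the ratio to the free RNA of the same library and averaged over the rhabdomyolysis libraries, Saa3 CPM was 3.47 times free RNA in monocytes, 0.578 times in macrophages and 0.823 times in neutrophils. Monocytes exceeded the free RNA of their own library in all 3. Macrophage Saa3 exceeded the free RNA of its own library in library 2 alone (726 against 537 CPM). Without library 2 the mean Saa3 level was 543 CPM in monocytes, 36.7 CPM in macrophages and 131 CPM in neutrophils.

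Among the named classes, Lcn2 was highest in neutrophil-like cells of both groups, and it was also present in rhabdomyolysis monocytes. Neutrophil-like cells had 3261, 4194 and 1447 CPM in rhabdomyolysis libraries 1, 2 and 3 (101, 128 and 137 cells), against 1610.1, 921 and 657 CPM in control libraries 1, 2 and 3 (12, 10 and 9 cells). The third rhabdomyolysis library lay below the highest control library, so the groups overlapped, while within each same-numbered pair the rhabdomyolysis library was higher. In control library 1 a single cell held 23 of the 45 Lcn2 UMIs. The summed CPM of Lcn2 in neutrophil-like cells was 2.74 times as high in rhabdomyolysis (counting interval 2.20 to 3.46). In monocyte-like cells Lcn2 had 540.0, 655 and 326 CPM in the rhabdomyolysis libraries, against 7.2, 0 and 0 CPM in the control libraries. That control level rests on 1 UMI, and the ratio was 163 with a counting interval of 29.2 to 6432. Macrophage-like cells had 9.60, 42.6 and 3.65 CPM in the rhabdomyolysis libraries, each below the free RNA of its own library (197, 338 and 107 CPM), against 0 UMIs in 3913 control macrophage-like cells. Mean Lcn2 CPM in the rhabdomyolysis libraries ran from neutrophils (2967 ± 1397) through Malat1-poor cluster 12 (786 ± 312), monocytes (507 ± 167) and free RNA (214 ± 116) to macrophages (18.6 ± 21.0; SD, n = 3 each). Neutrophils stood above Malat1-poor cluster 12 without overlap, whereas the ranges of Malat1-poor cluster 12 and monocytes overlapped, as did those of monocytes and free RNA. Within each library Malat1-poor cluster 12 lay above monocytes, and monocyte CPM was 1.94 to 3.06 times that of free RNA. Without library 2 the macrophage mean of Lcn2 was 6.63 CPM.

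Injured tubules are a known source of Lcn2, and some cells with tubule genes were called despite the CD45 sort. Kidney tubule-like cells had 1, 1 and 0 Lcn2 UMIs in 2, 5 and 3 rhabdomyolysis cells and 0 in 52, 61 and 46 control cells. Unnamed cluster 20, led by the distal tubule genes S100g, Calb1 and Klk1, had 1565, 11027 and 1019 CPM of Lcn2 in rhabdomyolysis libraries 1, 2 and 3, over 7, 10 and 6 cells that held 393 of the 8819 Lcn2 UMIs in called cells. Its summed level, 4767 CPM, was above the 3007 CPM of rhabdomyolysis neutrophils, but 327 of its Lcn2 UMIs came from library 2. In libraries 1 and 3 the cluster lay below the neutrophils of the same library. A single cell held 65.7%, 29.7% and 96.8% of its Lcn2 UMIs in rhabdomyolysis libraries 1, 2 and 3. In the control libraries the same cluster had 0 Lcn2 UMIs in 62, 19 and 29 cells. Rhabdomyolysis cells of unnamed cluster 20 also carried the macrophage marker list at a summed 9343, 20401 and 12557 CPM and an injured tubule list at 2906, 506 and 3747 CPM, against 98.4, 299 and 165 CPM of the injured tubule list in the control libraries. Of the leading genes, S100g itself was at 2235, 33.7 and 0 CPM in the rhabdomyolysis cells and at 11305, 12333 and 11176 CPM in the control cells of unnamed cluster 20. Endothelial-like cells had 15.6, 374 and 8.24 CPM of Lcn2 in the rhabdomyolysis libraries and 0 in the control libraries, with 86 of 88 UMIs in library 2.

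Hp had the most UMIs of the 4 genes in the control libraries, and its neutrophil levels overlapped between the groups. Neutrophil-like cells had 2352, 1776 and 1868 CPM in rhabdomyolysis libraries 1, 2 and 3, against 2433, 2512 and 1971 CPM in control libraries 1, 2 and 3. These ranges overlapped, and the summed CPM ratio was 0.838 (counting interval 0.716 to 0.986). Monocyte-like cells had 614, 843 and 615 CPM in the rhabdomyolysis libraries, all above the 302, 351 and 484 CPM of the control libraries. The summed monocyte ratio was 1.88 (1.58 to 2.27), against 30.7 over all called cells. The number of neutrophil-like cells was 101, 128 and 137 in the rhabdomyolysis libraries and 12, 10 and 9 in the control libraries. That of monocyte-like cells was 263, 301 and 455 in the rhabdomyolysis libraries and 31, 20 and 21 in the control libraries. Of 8856 Hp UMIs in rhabdomyolysis called cells, neutrophils held 1550 and monocytes 6863. The part of cell numbers in the Hp difference was not tested. Macrophage-like cells had 5.85, 16.2 and 0.811 CPM of Hp in the rhabdomyolysis libraries, below free RNA (175, 186 and 142 CPM), and 1 UMI in all control macrophage-like cells. Endothelial-like, B cell-like and T cell-like cells had no Hp UMI in either group. In the rhabdomyolysis libraries the order of mean Hp CPM was neutrophils (1999 ± 309), monocytes (691 ± 132), Malat1-poor cluster 12 (479 ± 86.4), free RNA (168 ± 22.9) and macrophages (7.63 ± 7.86; SD, n = 3 each), and no neighbours overlapped.

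Lrg1 was found in neutrophils, in endothelial cells and at a lower level in monocytes. Neutrophil-like cells had 653, 509 and 453 CPM in rhabdomyolysis libraries 1, 2 and 3, against 572, 502 and 87.6 CPM in control libraries 1, 2 and 3, with overlap between the groups and the rhabdomyolysis library higher in each same-numbered pair. The summed ratio was 1.30 with a counting interval of 0.897 to 1.95, so a difference in neutrophils was not detectable at this depth (30 control UMIs). Monocyte-like cells had 141, 121 and 113 CPM of Lrg1 in the rhabdomyolysis libraries and no UMI in the control libraries, at least 14.0-fold higher in the sum. Endothelial-like cells had 375, 205 and 453 CPM in the rhabdomyolysis libraries (16, 55 and 28 cells), against 0, 68.8 and 0 CPM in the control libraries (65, 29 and 33 cells). The groups did not overlap there, and the summed ratio was 17.5 (9.66 to 34.7). All 12 control UMIs came from control library 2, 11 of them from a single cell, and without that library the control count was 0. These cells carried the endothelial marker list at 8751 to 10677 CPM and the neutrophil list at 125, 152 and 24.7 CPM in the rhabdomyolysis libraries, while their Hp was at 0. CD45 itself (Ptprc) had 0, 10 and 1 UMIs in the rhabdomyolysis endothelial-like cells and 76, 46 and 23 UMIs in the control ones, and its part in the result was not tested. In mean CPM over rhabdomyolysis libraries Lrg1 ran from neutrophils (538 ± 103) through monocytes (125 ± 14.7), Malat1-poor cluster 12 (125 ± 75.5) and free RNA (25 ± 4.34) to macrophages (5.41 ± 4.81; SD, n = 3 each). Only monocytes and Malat1-poor cluster 12 overlapped as neighbours among these 5, and endothelial-like cells lay between neutrophils and monocytes by mean, at 329 ± 176 CPM in the 2 libraries with at least 20 of them.

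The mixture of the 4 genes differed between cell classes. Of the UMIs of the 4 genes in rhabdomyolysis neutrophils, Lcn2 made up 49.4% ± 11.0, Hp 36.9% ± 11.9, Lrg1 9.74% ± 2.33 and Saa3 3.97% ± 3.24 (SD, n = 3). In rhabdomyolysis monocytes Saa3 made up 36.6% ± 9.77 and Hp 33.5% ± 7.45 of them. Macrophages held Saa3 at 71.4% ± 23.3 and Hp at 5.64% ± 3.24, while free RNA held Saa3 at 36.4% ± 12, Lcn2 at 31% ± 1.97 and Hp at 28.3% ± 10.8. The macrophage shares rest on 214, 2596 and 24 UMIs of the 4 genes in rhabdomyolysis libraries 1, 2 and 3, of which Saa3 made up 77.1%, 91.3% and 45.8%, the last with an exact interval of 25.6% to 67.2%. The Hp share was 6.54%, 2.04% and 8.33% in macrophages of rhabdomyolysis libraries 1, 2 and 3 and 29.3%, 17.1% and 38.6% in their free RNA. In library 3 the macrophage share rests on 2 Hp UMIs (exact interval 1.03% to 27.0%). The mean monocyte shares of Saa3 and Hp lay nearer to those of free RNA. The part of free RNA in the counts of either class was not tested. Malat1-poor cluster 3 was likewise led by Saa3, at 84.1% ± 11.0, and Malat1-poor cluster 12 lay near monocytes with Saa3 at 38.0% ± 13.3 and Hp at 22.8% ± 9.33. The neutrophil marker list summed to 267, 714 and 43.4 CPM in rhabdomyolysis macrophages and to 36.0, 39.2 and 28.6 CPM in control macrophages, in the same library order as Saa3, and its part in the result was not tested. An antibody tag against the macrophage protein F4/80 was read at 10.1 to 10.4 tags per 1000 gene UMIs in macrophages of the rhabdomyolysis libraries and at 9.93 to 15.7 in Malat1-poor cluster 3, against 1.76 to 2.31 in neutrophils.

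**Figure D2:**
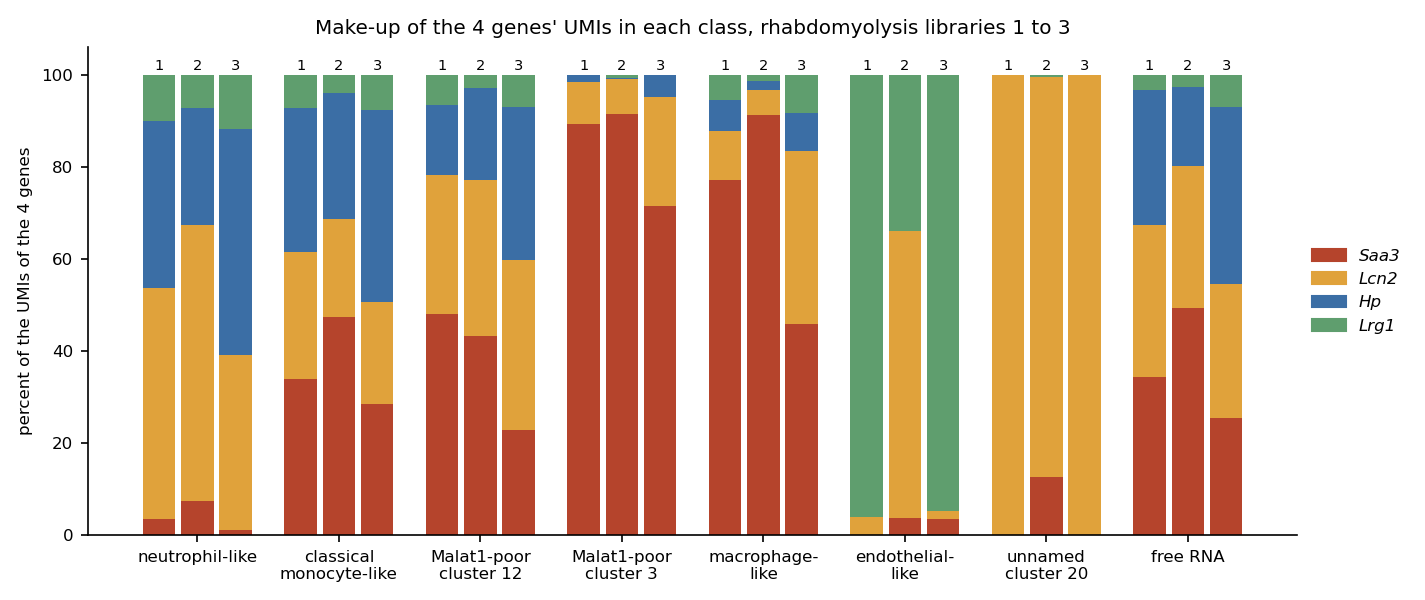
Share in percent of the UMIs of Saa3, Lcn2, Hp and Lrg1 that belongs to each gene (stacked bars, 1 per rhabdomyolysis library, numbered above) in 7 groups of cells and in free RNA. Neutrophil-like cells are led by Lcn2 (mean 49.4%) and macrophage-like cells by Saa3 (mean 71.4%), and Hp is a small share in macrophage-like cells (mean 5.64%).

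Monocyte-like cells held the largest share of the UMIs of each of the 4 genes in every rhabdomyolysis library. This class was 14.0%, 12.1% and 10.4% of called cells in rhabdomyolysis libraries 1, 2 and 3. Summed over these libraries it held 10087513 of the 35800307 gene UMIs of called cells, a larger share than its share of cells. It held 75.5%, 43.7% and 92.3% of the Saa3 UMIs, 62.0%, 42.4% and 70.9% of Lcn2, 75.4%, 74.6% and 81.4% of Hp, and 66.1%, 53.3% and 71.1% of Lrg1. Its median UMI count, 8957 to 9895 per cell, was above that of neutrophils (1734 to 2333.5), so a neutrophil adds fewer UMIs to these sums than a monocyte at the same CPM. Neutrophil-like cells held 27.3%, 31.2% and 19% of the Lcn2 UMIs but 1.84%, 1.79% and 0.519% of Saa3. Macrophage-like cells held 7.41%, 24.5% and 0.519% of Saa3, and Malat1-poor clusters together 15.1%, 28.8% and 5.52%. With classes from the finer clustering, the cluster still named classical monocyte-like held a mean of 32.7% of Saa3, 12.7% of Lcn2, 22% of Hp and 15.8% of Lrg1, against 70.5%, 58.4%, 77.1% and 63.5% for the whole class. Library 2 was thus the one in which Saa3 spread furthest beyond monocytes. Endothelial-like cells, at most 2.20% of called cells, held 4.44%, 7.15% and 7.42% of the Lrg1 UMIs.

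**Figure D3:**
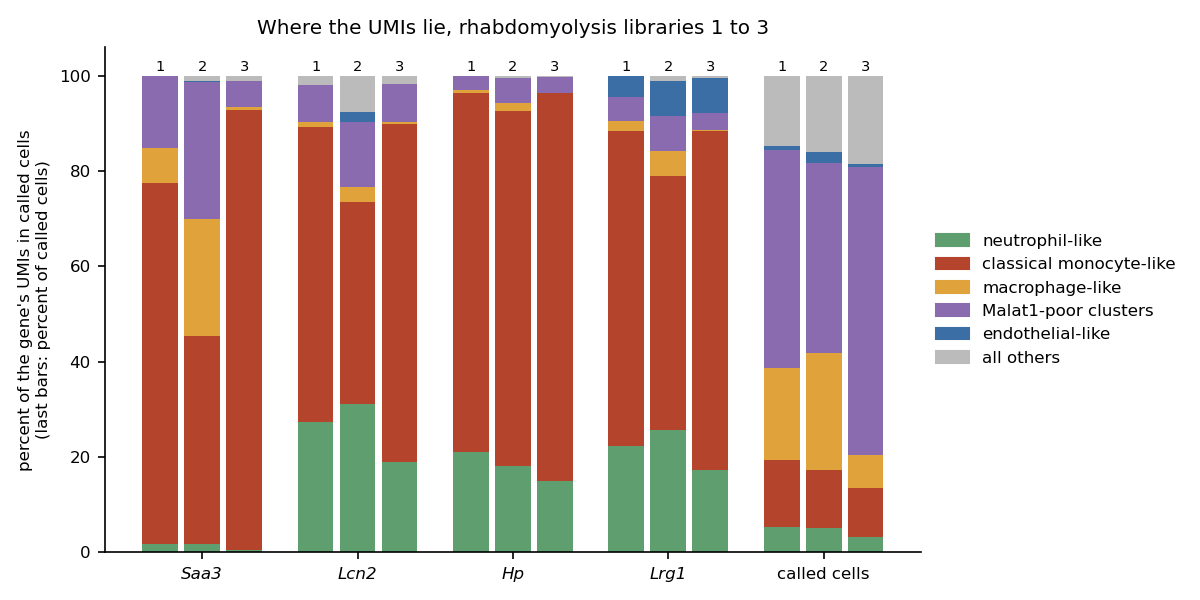
Share in percent of each gene's UMIs in called cells by class of cell (stacked bars, 1 per rhabdomyolysis library, numbered above), with the share of called cells in each class in the last bars. Monocyte-like cells, 10.4% to 14.0% of the cells, hold between 42.4% and 92.3% of the UMIs of each gene. Summed over the libraries they hold 10087513 of the 35800307 gene UMIs of called cells.

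The genes were unevenly spread over single cells. To compare cells of different depth each was thinned to 1000 UMIs, leaving out shallower cells. In thinned monocytes, Saa3 was detected in 20.5%, 33.0% and 14.2% of cells in rhabdomyolysis libraries 1, 2 and 3 (37.3%, 48.2% and 31.6% before thinning), Lcn2 in 20.9%, 21.0% and 10.4% and Hp in 30.7%, 39.2% and 30.5%. In thinned neutrophils, Lcn2 was detected in 73.6%, 78.7% and 47.3% of cells, Hp in 78.0%, 68.0% and 64.9% and Lrg1 in 40.7%, 36.1% and 22.1%. Lcn2 and Hp were thus detected in a larger share of neutrophils than of monocytes in every rhabdomyolysis library. B cell-like cells, whose median depth was 1888.5 to 2545 UMIs in the rhabdomyolysis libraries, gave the background of the same measure, with a mean of 0.794% for Saa3, 1.23% for Lcn2 and 0 for Hp and Lrg1. Macrophages showed Saa3 in 2.83%, 7.30% and 0.339% of thinned cells and Lcn2 in 1.70%, 2.82% and 0 of them. The macrophage share of Saa3 in library 3 lay below the B cell mean, and the macrophage shares of Lcn2 lay on both sides of it. Among thinned endothelial-like cells of the 2 rhabdomyolysis libraries with at least 20 cells, Lrg1 was detected in 20.6% on average, against 1.19% ± 2.06 in the control libraries (SD, n = 3).

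**Figure D4:**
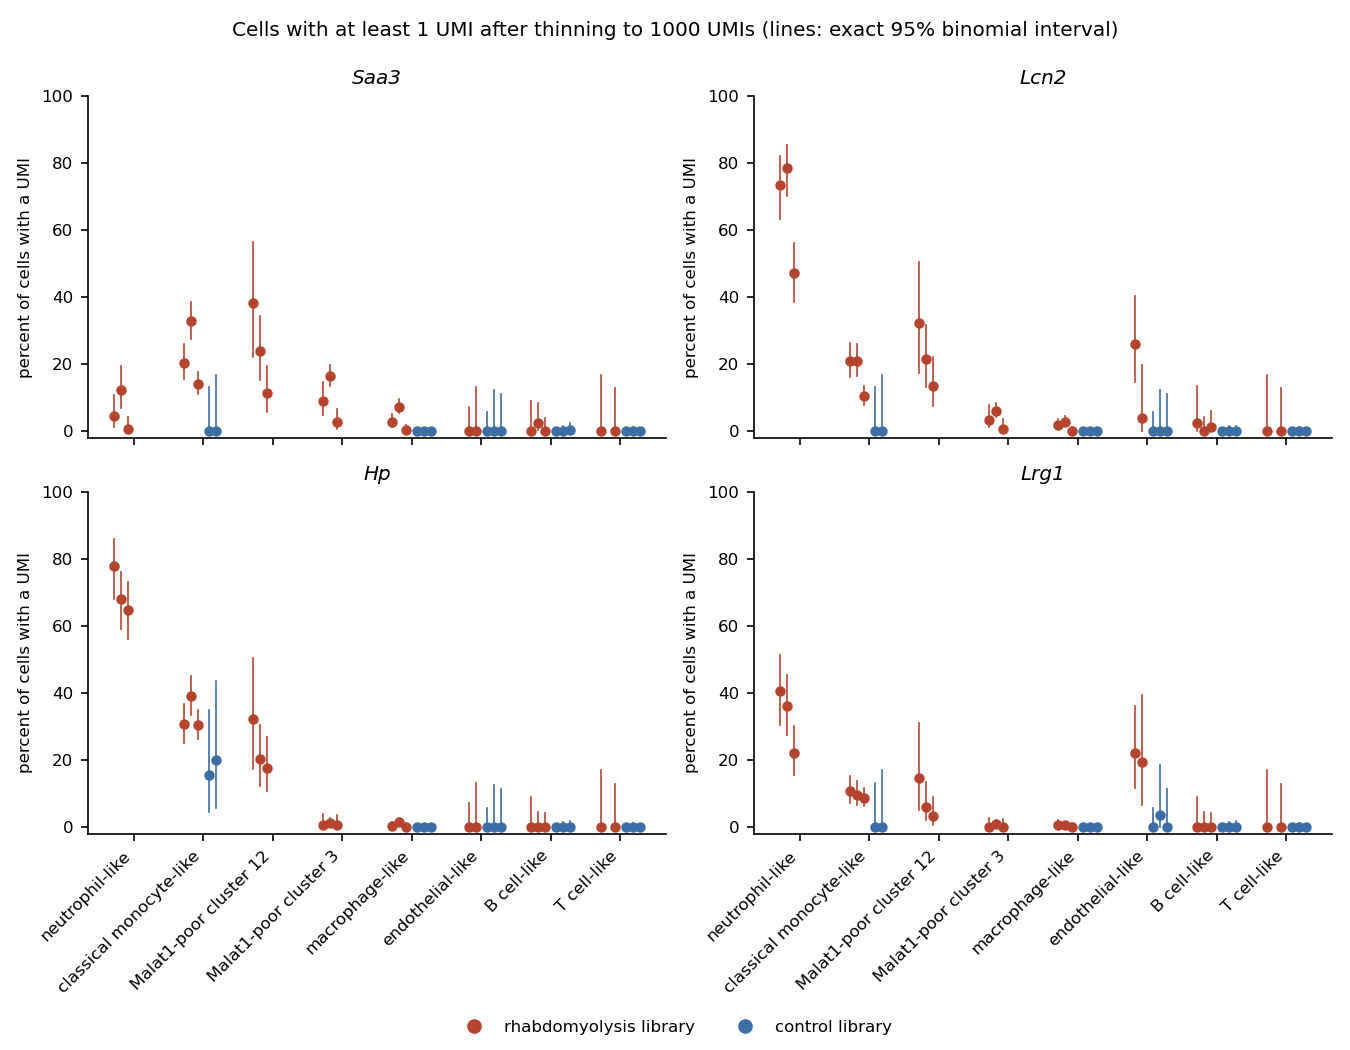
Percent of cells with at least 1 UMI of each gene after thinning to 1000 UMIs (vertical), in 8 groups of cells, 1 point per library with at least 20 thinned cells, rhabdomyolysis (red) left of control (blue), with exact 95% binomial intervals as lines. Lcn2 is seen in 47.3% to 78.7% of rhabdomyolysis neutrophil-like cells and in 10.4% to 21.0% of rhabdomyolysis monocyte-like cells.

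Within monocytes the genes tended to be found in the same cells. In thinned monocytes of rhabdomyolysis libraries 1, 2 and 3, Hp was detected in 67.9%, 70.5% and 80.9% of cells with an Lcn2 UMI, against 20.9%, 30.9% and 24.7% of cells without one. Lcn2 was detected in 53.8%, 45.8% and 17.2% of cells with a Saa3 UMI, against 12.4%, 8.72% and 9.28% of cells without one. The direction was the same in the 3 libraries for both pairs. The tenth of monocytes with the most UMIs of a gene held 76.6%, 72.3% and 81.7% of its Saa3 UMIs and 50.8%, 55.2% and 56.4% of its Hp UMIs. The neutrophil marker list summed to 2853, 2325 and 1422 CPM in classical monocyte-like cells of the rhabdomyolysis libraries and to 266, 101 and 144 CPM in those of the control libraries, where 9 of its 12 genes were at 0 in each library. In neutrophil-like cells of the rhabdomyolysis libraries the same list summed to 108530 to 116789 CPM, and its defining gene Ly6g was at 0 in all 3 sets of rhabdomyolysis monocytes.

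Clustering at a finer resolution (Leiden resolution 2) split the rhabdomyolysis monocytes, and the 4 genes went mostly to one side. One cluster, still named classical monocyte-like and led by Arg1, Fn1, Pdpn and Spp1, held 158, 163 and 264 cells in rhabdomyolysis libraries 1, 2 and 3 and 1 control cell. The other, unnamed and led by Ace, Ear2, Prtn3, Hp, Mmp8 and Treml4, held 105, 138 and 191 cells in the rhabdomyolysis libraries and 32, 20 and 20 in the control libraries. In the unnamed cluster Hp was at 1391, 1492 and 1385 CPM in the rhabdomyolysis libraries, against 305, 351 and 412 CPM in its control cells, without overlap. In the classical monocyte-like cluster Hp was at 279, 436 and 212 CPM in the rhabdomyolysis libraries. Lcn2 was at 1324, 1299.6 and 787 CPM in the rhabdomyolysis cells of the unnamed cluster and at 202, 251 and 84.5 CPM in the classical monocyte-like cluster. Saa3 followed the same pattern, with 1303, 2404 and 543 CPM in the unnamed cluster and 392, 867 and 353 CPM in the classical one. Lrg1 was at 333, 260.3 and 241 CPM in the unnamed cluster and at 59.0, 33.8 and 45.7 CPM in the classical one. Ace, a marker of nonclassical monocytes, was at 17.8, 15.2 and 36.2 CPM in rhabdomyolysis and at 317, 335 and 209 CPM in control libraries in the undivided classical monocyte-like class. The monocyte ratios between the groups given above thus compare unlike mixtures of monocytes.

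Control free RNA held few UMIs of the 4 genes, and most of the Saa3 ones sat on barcodes that were Saa3-positive cells elsewhere. Free RNA had 206, 537 and 93.8 CPM of Saa3 in rhabdomyolysis libraries 1, 2 and 3, against 6.37, 6.41 and 10.2 CPM in control libraries 1, 2 and 3. Of the 34 control free-RNA barcodes with a Saa3 UMI, 31 (91.2%) were also the barcode of a called cell with Saa3 in a rhabdomyolysis library. The same held for 14 of 20 barcodes with Lcn2, 19 of 38 with Hp and 2 of 9 with Lrg1. Between rhabdomyolysis libraries the share was 1.91% for Saa3, at 15 of 786 barcodes. Without the shared barcodes the control free RNA level of Saa3 was 0.675 CPM instead of 7.65 CPM, that of Lcn2 1.35 instead of 4.5 and that of Hp 4.28 instead of 8.55 CPM. Why barcodes were shared was not tested.

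Genes with the most similar pattern were ranked by Pearson's r of log2(CPM + 1) over 66 pairs of cell class and library, from 14 classes, among 7830 genes. These pairs share libraries and cell classes, so r is a description. Clec4d, a C-type lectin receptor of myeloid cells, was nearest to Saa3 (r = 0.858) and to Lcn2 (r = 0.850). Saa3 and Lcn2 themselves were close to each other (r = 0.826), and Lrg1 was nearest to Lcn2 (r = 0.839). Hp stood apart, with r of 0.649 to Saa3, 0.729 to Lcn2 and 0.653 to Lrg1. Its nearest genes were Mmp8, a collagenase of neutrophil granules (r = 0.936), and Chil3, a chitinase-like protein of myeloid cells (r = 0.925).

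The cytokines, transcription factors and partner genes around the 4 genes were then compared between groups, with a list of 85 genes in 6 roles. UMI counts summed per library were tested with the edgeR quasi-likelihood test, adjusted over all genes by the Benjamini-Hochberg method and called at an adjusted p under 0.05. In mononuclear phagocyte-like cells (macrophage-like and monocyte-like cells joined) 49 of the 85 genes passed the filter on low counts, which a gene high in only 1 group can pass, and 23 of them rose and 10 fell, against 53.5% called among all 10557 genes tested, 26.4% higher and 27% lower. Monocyte-like cells were 263, 301 and 455 of these 625, 918 and 754 cells in the rhabdomyolysis libraries and 31, 20 and 21 of 1616, 1424 and 945 in the control libraries, so the mixture moved with the group. The median log2 change of the list was 0.60, beside -0.04 over all genes. In macrophage-like cells (cluster 1 in rhabdomyolysis, clusters 8 and 25 in control) 39 genes were tested, of which 9 rose and 11 fell, against 35.9% called among all genes (17.7% higher and 18.3% lower), and the median was -0.08 beside -0.05. In all called cells 55 were tested, of which 29 rose and 8 fell, against 47.2% called (23.2% higher and 24% lower), with a median of 0.87 beside -0.04.

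Of 10 inducing cytokines listed, 2 of the 3 tested in macrophage-like cells rose, against 17.7% higher over all genes. In mononuclear phagocyte-like cells all 4 tested rose, against 26.4% higher over all genes. Osm, which encodes oncostatin M, a cytokine of the interleukin 6 family, had 131, 102 and 136 CPM in rhabdomyolysis libraries 1, 2 and 3 against 6.09, 3.80 and 5.39 CPM in control libraries 1, 2 and 3. Its log2 change was 4.74 ± 0.22 (SE; edgeR adjusted p = 4.09e-07). Tnf, the tumor necrosis factor gene, had 219, 147 and 102 CPM in the rhabdomyolysis and 41.8, 36.1 and 51.5 CPM in the control libraries, with a log2 change of 2.01 ± 0.28 (edgeR adjusted p = 0.00028). Il1a, which encodes interleukin 1 alpha, had 394 UMIs in rhabdomyolysis and 1 UMI in control cells, a ratio of 338 (counting interval 60.2 to 13367). Il6, the main inducer in the liver, was not tested, with 14 UMIs in rhabdomyolysis and 2 in control mononuclear phagocyte-like cells. Among cytokine receptors and signalling genes 8 of 10 were tested, of which 3 rose and 1 fell, against 26.4% higher and 27% lower over all genes. Socs3, the feedback inhibitor of STAT3, rose with a log2 change of 3.50 ± 0.21 (edgeR adjusted p = 1.86e-06) and had 633, 714 and 456 CPM in the rhabdomyolysis libraries against 64.5, 51.3 and 61.8 CPM in the control libraries. Lifr, the leukemia inhibitory factor receptor, fell by 1.09 ± 0.21 on the log2 scale (edgeR adjusted p = 0.00178).

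All 10 transcription factors and cofactors were tested in mononuclear phagocyte-like cells, of which 3 rose and 1 fell, near the share over all genes (26.4% higher). In macrophage-like cells 1 rose and 1 fell of 9 tested, against 17.7% higher and 18.3% lower over all genes. Cebpb, a C/EBP factor that binds acute phase promoters, had 2564, 2761 and 2486 CPM in rhabdomyolysis libraries 1, 2 and 3 and 179, 226 and 241 CPM in control libraries 1, 2 and 3. Its log2 change was 3.75 ± 0.17 in mononuclear phagocyte-like cells (edgeR adjusted p = 3.19e-07) and 3.62 ± 0.30 in macrophage-like cells (edgeR adjusted p = 0.000172). Cebpe, the C/EBP factor of granule formation in neutrophils, had 63 UMIs in rhabdomyolysis and 2 in control cells, a ratio of 27.0 (counting interval 7.17 to 228). Bcl3, a cofactor of NF-kappa B, rose by a log2 change of 1.07 ± 0.23 (edgeR adjusted p = 0.00362), a call that ended with classes from the finer clustering (0.60, edgeR adjusted p = 0.115). Nfkb1, a subunit of NF-kappa B, was the gene of this role that fell.

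The other acute phase products were mostly too rare in these cells to test. Of 25 listed, 6 were tested in mononuclear phagocyte-like cells. Of these 4 rose and 1 fell, against 26.4% higher and 27% lower over all genes. Il1rn, the secreted antagonist of interleukin 1, had 48.0, 22.7 and 59.3 CPM in rhabdomyolysis libraries 1, 2 and 3 against 0.165, 0.38 and 0.703 CPM in control libraries 1, 2 and 3, with a log2 change of 6.89 ± 0.54 (edgeR adjusted p = 8.19e-06). Cfb, complement factor B, rose with a log2 change of 3.73 ± 0.44 (edgeR adjusted p = 9.88e-05). Cp, which encodes ceruloplasmin, a copper-carrying ferroxidase, fell by 2.69 ± 0.43 on the log2 scale (edgeR adjusted p = 0.000611). The serum amyloid A genes of the liver, Saa1 and Saa2, had 1 and 0 UMIs in all called rhabdomyolysis cells and 0 each in control cells, beside 14013 and 5 UMIs of Saa3. Orm1, an acid glycoprotein gene, had 20 UMIs in rhabdomyolysis and 0 in control cells, and Crp and Apcs had none in either group.

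Of 14 receptors and partners of the products, 12 were tested in mononuclear phagocyte-like cells, where the share of monocytes differed between the groups, and 2 rose and 6 fell, against 26.4% higher and 27% lower over all genes. In macrophage-like cells 0 rose and 7 fell of 11 tested, against 17.7% higher and 18.3% lower over all genes. In all called cells 4 rose and 4 fell of 14, against 23.2% higher and 24% lower over all genes. Tgfbr1, a receptor of the pathway that Lrg1 modulates, had 115, 120 and 115 CPM in rhabdomyolysis libraries 1, 2 and 3 against 542, 635 and 549 CPM in control libraries 1, 2 and 3, a log2 change of -2.15 ± 0.13 (edgeR adjusted p = 2.35e-06). In macrophage-like cells alone its log2 change was -1.69 ± 0.16 (edgeR adjusted p = 0.000243). Eng, which encodes endoglin, fell by 2.07 ± 0.23 (edgeR adjusted p = 7.25e-05) and Acvrl1, the receptor ALK1, by 1.88 ± 0.31 on the log2 scale (edgeR adjusted p = 0.000697). The call of Acvrl1 in macrophage-like cells, a log2 change of -1.18 ± 0.38 (edgeR adjusted p = 0.0402), ended without rhabdomyolysis library 1 and without any 1 of the control libraries. Slc22a17, a proposed lipocalin 2 receptor, fell by 1.36 on the log2 scale (edgeR adjusted p = 0.0262). The genes of this role that rose were the formyl peptide receptors Fpr1 and Fpr2, of which Fpr2 binds serum amyloid A.

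The role of neutrophil granule genes was listed because lipocalin 2 is stored in neutrophil granules. Its 16 genes are not limited to those of proteins stored together with lipocalin 2. Of these 16, 9 were tested in mononuclear phagocyte-like cells, of which 7 rose and 1 fell. Over all genes 26.4% were higher and 27% lower, and monocytes were a larger share in rhabdomyolysis, as given above. In macrophage-like cells 2 rose and 2 fell of 4 tested, against 17.7% higher and 18.3% lower over all genes. S100a8, a calcium-binding alarmin, had 13837 UMIs in rhabdomyolysis and 2 in control cells, a ratio of 5928 (counting interval 1641 to 48953). Its partner S100a9 had a log2 change of 10.14 ± 0.50 (edgeR adjusted p = 4.8e-07), and 7.28 ± 0.95 in macrophage-like cells (edgeR adjusted p = 0.00112). With classes from the finer clustering the macrophage value was 2.55 and the call ended (edgeR adjusted p = 0.112). Wfdc21, a whey acidic protein family gene, had 1196 UMIs in rhabdomyolysis and 0 in control cells, at least 342-fold higher. Cybb, a subunit of the phagocyte oxidase, was the gene of this role that fell, by 1.18 on the log2 scale.

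**Figure D5:**
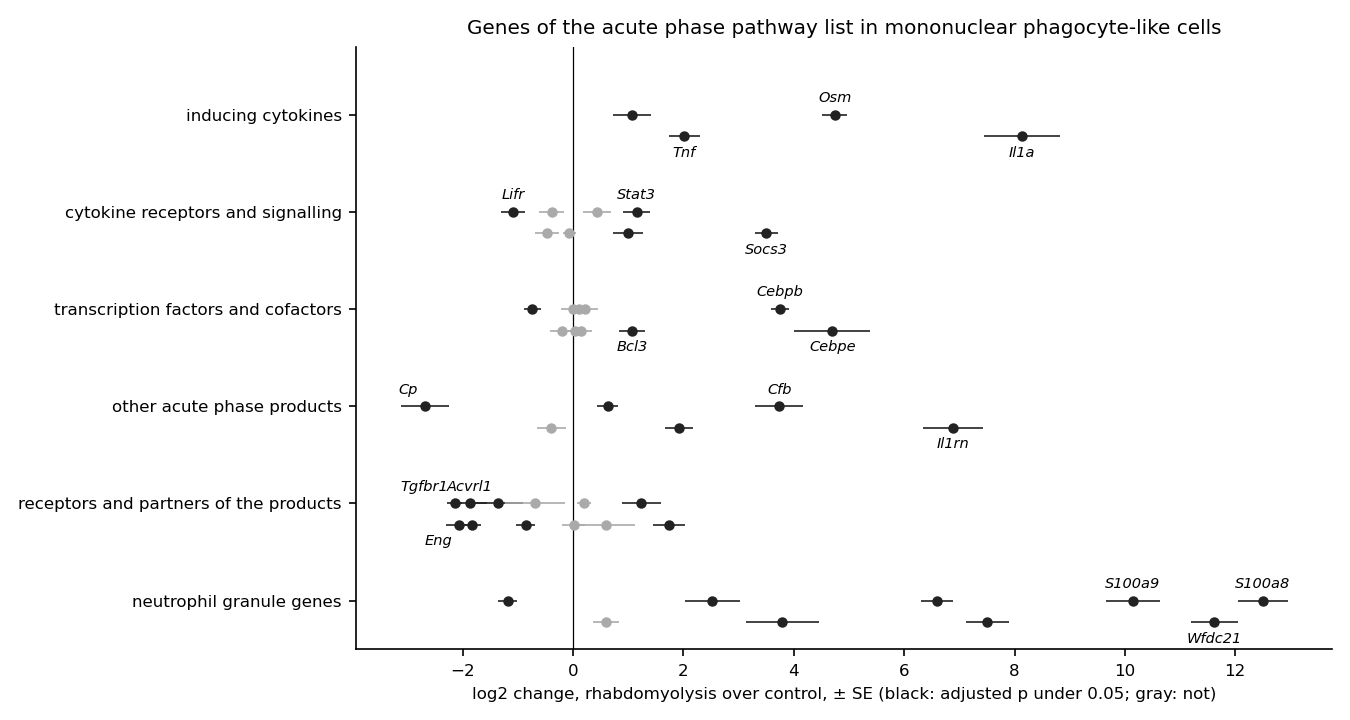
Log2 change of each tested gene of the list (horizontal, rhabdomyolysis over control, lines show the SE) by role in mononuclear phagocyte-like cells, black where the adjusted p is under 0.05 and gray where it is not. Osm, Socs3 and Cebpb lie to the right of 0 and Tgfbr1, Eng and Acvrl1 to the left, and the points of Il1a, Cebpe, S100a8 and Wfdc21 rest on 0 to 2 control UMIs.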

How the data were processed

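The deposited matrices hold raw counts of UMIs per gene and barcode for all barcodes, not normalized, made by the authors with Cell Ranger 4 per the file headers, on the build mm10 per the submitters' processing notes. The 3 rhabdomyolysis and 3 control libraries, grouped by their titles, held 10816727 to 22656666 gene UMIs. The rows of antibody tags were kept out of library sizes. The 4 genes, the gene lists, markers and tests were chosen with earlier results of these data known, and the cluster thresholds after seeing them.

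Cells were barcodes of 500 or more UMIs and 200 or more genes, 15% or fewer of the UMIs mitochondrial, whose profile was unlike the free RNA of the library in a multinomial Monte Carlo test (10000 draws, Benjamini-Hochberg adjusted p of 0.001 or less). Doublet scores came from simulated doublets within a library, and the top 0.8% per 1000 cells were removed. Cells were clustered with scanpy 1.11.5 (2000 variable genes without the 4 genes, 30 components, 20 neighbours, Leiden resolution 1, no batch correction). A class name needed at least 3 of its markers over 2-fold, and not more markers of another class among the 10 leading genes. A cluster far below the median depth of its libraries also needed a marker of its own among those genes. Injured tubule was not allowed as a class name. Unnamed cluster 20, which best matched that list with 5 of 8 markers over 2-fold, was left unnamed for this reason. CPM is given per class and library, with means over libraries of at least 20 cells.

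UMI counts summed per library were tested with edgeR 4.0.16 (quasi-likelihood, TMM, default expression filter, R 4.3.3), and the scripts were tested on simulated data. All 4 genes are named, and of each role the 3 called genes with the largest change in mononuclear phagocyte-like cells, with others named in passing after their values were seen. Intervals are exact at 95%, a count of 0 allows up to 3 counts, and both cover counting error only. Same-numbered libraries of the groups deviated together (r of 0.140 to 0.312), although the labels do not say what the replicate number marks. It was taken as pairing only in descriptions and in an alternative fit with the replicate number as a block. The p-values given come from the fit without that block. Alternatives were other scalings and filters, DESeq2 1.42.0, finer clustering, other cell and free RNA cut-offs, another thinning depth, the replicate block and each library left out.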

Additional observations from a re-analysis of the deposited data

How the results depend on the processing

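Pathway calls numbered 29 to 37 in mononuclear phagocyte-like cells, 17 to 28 in macrophage-like cells and 34 to 43 in all called cells when 1 library was left out, against 33, 20 and 37 with all libraries. With the replicate block, 23 genes rose and 11 fell in mononuclear phagocyte-like cells, 10 rose and 11 fell in macrophage-like cells, and 30 rose and 7 fell in all called cells, and no count moved by over 1.5 times. Over all genes, 3571 were called in macrophage-like cells, and 2341, 5379, 1978, 1668 and 2228 without rhabdomyolysis libraries 1 and 2 and control libraries 1, 2 and 3. Finer clustering, which leaves fewer cells in the named class, gave monocyte-like levels of 179 CPM for Lcn2, 309 for Hp and 46.1 for Lrg1, and shares of UMIs of 32.7% for Saa3, 12.7% for Lcn2, 22% for Hp and 15.8% for Lrg1. TMM scaling gave 144 CPM for Lrg1 in monocyte-like cells. Thinning to 500 UMIs tends to lower the share in the same cells but also lets in shallower cells. It gave 10.9% for Lcn2, 21.0% for Hp and 4.46% for Lrg1 in monocyte-like cells, and 52.5% for Hp and 19.2% for Lrg1 in neutrophil-like cells. The uncalled log2 changes of Bcl3 in macrophage-like cells, 0.71 to -0.20 with 1 library left out, and of Lifr in all called cells, -0.29 to 0.015, reversed without rhabdomyolysis library 2 and without control library 2, and the cause was not tested. Without 1 rhabdomyolysis library, mean CPM of Saa3 ranged from 543 to 1063 in monocyte-like, 36.7 to 397 in macrophage-like and 131 to 372 in neutrophil-like cells, and in macrophage-like cells that of Lcn2 from 6.63 to 26.1, of Hp from 3.33 to 11.0 and of Lrg1 from 2.91 to 7.71, the lowest of each being the value without library 2. Control neutrophil-like and monocyte-like cells, 31 and 72 in all, limit what levels of Saa3 and Lrg1 can be seen there.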
